A study of Mus musculus with 18 samples.

Results

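The proteasome genes are described here across mouse colorectal mucosa that passed from inflammation through dysplasia to carcinoma. Members were all genes whose symbol begins with Psm, 1 letter from a to g and a number, taken from probe sets annotated to exactly 1 gene, with the brightest probe set on average standing for each gene. The rule found 49 genes, carried by 103 probe sets, among 18193 genes on the array. Of these, 47 passed a filter that asked for at least 3 of the 18 arrays above the median signal of the table, and each of the 47 lay above that median on all 18 arrays. The 2 that did not pass, Psma8, a testis alpha subunit, and Psmb11, the thymus beta subunit, lay below it on all 18. The pattern also takes in Psmc3ip, a meiotic recombination gene, and Psme3ip1, whose product binds the activator Psme3. Neither is a proteasome subunit, so both were kept apart from the classes below. The 1 probe set for the activator gene Psme2 is annotated to 2 genes, so the rule leaves Psme2 out and no value is given for it.

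The arrays, Affymetrix whole-genome mouse arrays, came from male ICR mice, an outbred stock, that were 6 weeks old at the start. There were 6 groups of 3 arrays, which the labels call biological replicates. The normal group had a saline injection and plain water and was taken on day 14. All other groups had 1 injection of azoxymethane (AOM, 10 mg/kg), a colon carcinogen, and later drank dextran sulphate sodium (DSS), an agent that damages the epithelium of the colon. The inflamed mucosa (2 weeks, day 14) and the low grade dysplasia (LGD, 4 weeks, day 28) had the first cycle of DSS (2%, days 8 to 14). High grade dysplasia at 6 weeks (HGD, day 42) had also had the second cycle (1.5%, days 29 to 33). Actively inflamed HGD at 8 weeks (day 56) and carcinoma (labelled adenocarcinoma) at 20 weeks (day 140) had had the third as well (1.5%, days 50 to 54). AOM was never given without DSS, nor DSS without AOM. Normal mucosa was taken only on day 14, so for the groups after 2 weeks lesion and age cannot be told apart. The labels do not say whether the replicates are single mice or pools. The 5 comparisons with normal mucosa share the same 3 normal arrays.

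The proteasome degrades proteins that carry ubiquitin chains. Its barrel-shaped 20S core has outer rings of alpha subunits (Psma), which gate the entry, and inner rings of beta subunits (Psmb), which hold the cutting sites. The 19S cap recognises, unfolds and feeds in the substrate with a ring of ATPases (Psmc) and a set of non-ATPase subunits (Psmd). Interferon-gamma induces alternative catalytic subunits, Psmb8, Psmb9 and Psmb10, which take the places of Psmb5, Psmb6 and Psmb7 and form the immunoproteasome, together with the activator subunits Psme1 and Psme2. Immune cells carry much of it at rest, and it makes peptides suited to MHC class I. Constitutive subunit genes are known to be driven together by the transcription factor Nfe2l1 when proteasome activity falls short, and by Nfe2l2 under oxidative stress.

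The stretches of DNA just upstream of 5 members are shown, of inducible genes and of others. They were taken from RefSeq (GRCm38.p6), 5′ to 3′ in the direction of the named gene, up to the base before its start. Psmb9 and Tap1, the transporter that carries peptides to MHC class I, run away from each other with starts 226 bases apart, so the first stretch (chr17:34187331-34187555, minus strand) lies upstream of both. Psmb8 follows on the same chromosome (chr17:34197945-34198194, plus strand). The others are Psmb5 (chr14:54617996-54618245, minus strand), Psmb6 (chr11:70525107-70525356, plus strand) and Psmd9, a 19S assembly factor (chr5:123227940-123228189, plus strand). Capitals mark matches to a STAT-type sequence (TTCNNNGAA, in Psmb8), an interferon regulatory factor pair (GAAANNGAA, the first in Psmd9) and an antioxidant response element (TGACNNNGC, in Psmb5, Psmb6 and second in Psmd9).
Psmb9 to Tap1: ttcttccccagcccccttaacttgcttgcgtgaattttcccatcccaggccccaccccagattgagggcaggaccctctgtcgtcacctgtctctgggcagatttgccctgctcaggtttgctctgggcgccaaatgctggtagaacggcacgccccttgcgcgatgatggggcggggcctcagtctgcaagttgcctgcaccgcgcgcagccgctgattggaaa
Psmb8: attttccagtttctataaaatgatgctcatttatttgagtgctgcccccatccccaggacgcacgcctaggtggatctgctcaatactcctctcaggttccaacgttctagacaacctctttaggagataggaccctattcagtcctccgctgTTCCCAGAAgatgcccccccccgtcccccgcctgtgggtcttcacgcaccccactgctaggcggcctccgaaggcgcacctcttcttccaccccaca
Psmb5: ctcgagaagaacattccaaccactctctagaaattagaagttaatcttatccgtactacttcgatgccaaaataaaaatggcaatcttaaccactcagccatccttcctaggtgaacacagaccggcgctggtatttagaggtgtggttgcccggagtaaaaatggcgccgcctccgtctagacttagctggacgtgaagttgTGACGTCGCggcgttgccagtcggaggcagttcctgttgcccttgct
Psmb6: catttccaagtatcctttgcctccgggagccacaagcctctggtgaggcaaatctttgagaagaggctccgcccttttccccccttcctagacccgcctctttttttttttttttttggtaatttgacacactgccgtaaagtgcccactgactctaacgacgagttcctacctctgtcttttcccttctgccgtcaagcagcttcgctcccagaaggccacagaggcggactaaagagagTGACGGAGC
Psmd9: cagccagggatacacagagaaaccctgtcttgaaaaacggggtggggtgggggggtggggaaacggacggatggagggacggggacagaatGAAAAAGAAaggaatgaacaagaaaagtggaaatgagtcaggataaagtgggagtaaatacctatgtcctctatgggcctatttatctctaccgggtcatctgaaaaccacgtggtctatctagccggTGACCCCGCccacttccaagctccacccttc
RefSeq windows from 250 bases before to 50 after the start were at hand for 41 of the 49 members (44 windows) and were searched on both strands beside 32851 windows of all genes. The STAT-type sequence was in 6.82% of member windows and 8.3% of all windows, and its member matches were Psmb8, Psmd2 and Psmg1. The interferon regulatory factor pair was in 15.9% of member windows and 8.56% of all, in Psmb3, Psmb4, Psmc2, Psmd4, Psmd9, Psme1 and Psmg4. The antioxidant response element was in 13.6% and 12.4%, in Psmb5, Psmb6, Psmc6, Psmd12, Psmd9 and Psme4. The Psmb9 to Tap1 stretch held none of the 3. The stretches upstream of Psmb10, Psme1, Psmd1 and Psmc4, not shown, held none either, so those shown lean toward stretches with matches. The match of Psme1 lay after its start. These matches describe letters in a window and say nothing of binding.

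Values are log2(signal + 16), and every change is a difference of group means on that scale with its standard error (SE) from limma's fit of all 18 arrays. A gene is called higher or lower where its p, adjusted by Benjamini and Hochberg over all 12868 genes tested, is under 0.05. The array medians lay between 55.7 and 57.8 signal units. In normal mucosa the epithelial marker Epcam stood at 13.08 to 13.27, and in inflamed mucosa it stood at 11.66, 8.28 and 10.45. Replicate 2 of LGD stood apart in RNA quality: its Gapdh probe sets were 1.63 higher at the 3′ than at the 5′ end, against -0.08 to 0.15 in the other 17 arrays. Replicate 2 of the 8-week HGD was low in several leukocyte lists, given below. In whole tissue, fewer cells of a type and less RNA per cell cannot be told apart.

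The proteasome genes other than Psmb8, Psmb9, Psmb10 and Psme1 lay mostly above normal mucosa at every stage, by small amounts. The median change of these 41 genes was 0.35 in inflamed mucosa, 0.22 in LGD, 0.31 in HGD at 6 weeks, 0.39 in HGD at 8 weeks and 0.14 in carcinoma. The median over all genes tested was 0.01, 0.02, 0.01, 0.03 and -0.02. The change was positive in 36, 34, 41, 41 and 35 of the 41, where 50.9%, 52.4%, 51.4%, 53.9% and 46.6% of all genes were positive. A median change of 0.39 is a fold of 1.31. The same held in most single arrays: among the 15 diseased arrays, the median of the 41 genes ran from 0.02 (carcinoma replicate 1) to 0.49 (HGD at 8 weeks replicate 2), while in the normal arrays it was 0.08, 0.01 and -0.10. In LGD replicate 2, the array with the uneven Gapdh signal, it was 0.09, against 0.33 and 0.20 in the other LGD arrays. In normal replicates 1, 2 and 3, 36, 24 and 7 of the 41 genes lay above the normal mean. Of all genes tested, 60.6%, 50.3% and 38.7% did, a smaller lean in the same order. Genes of an array, members and others, thus leaned together, and the counts of positive changes are not counts of independent genes.

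**Figure D1:**
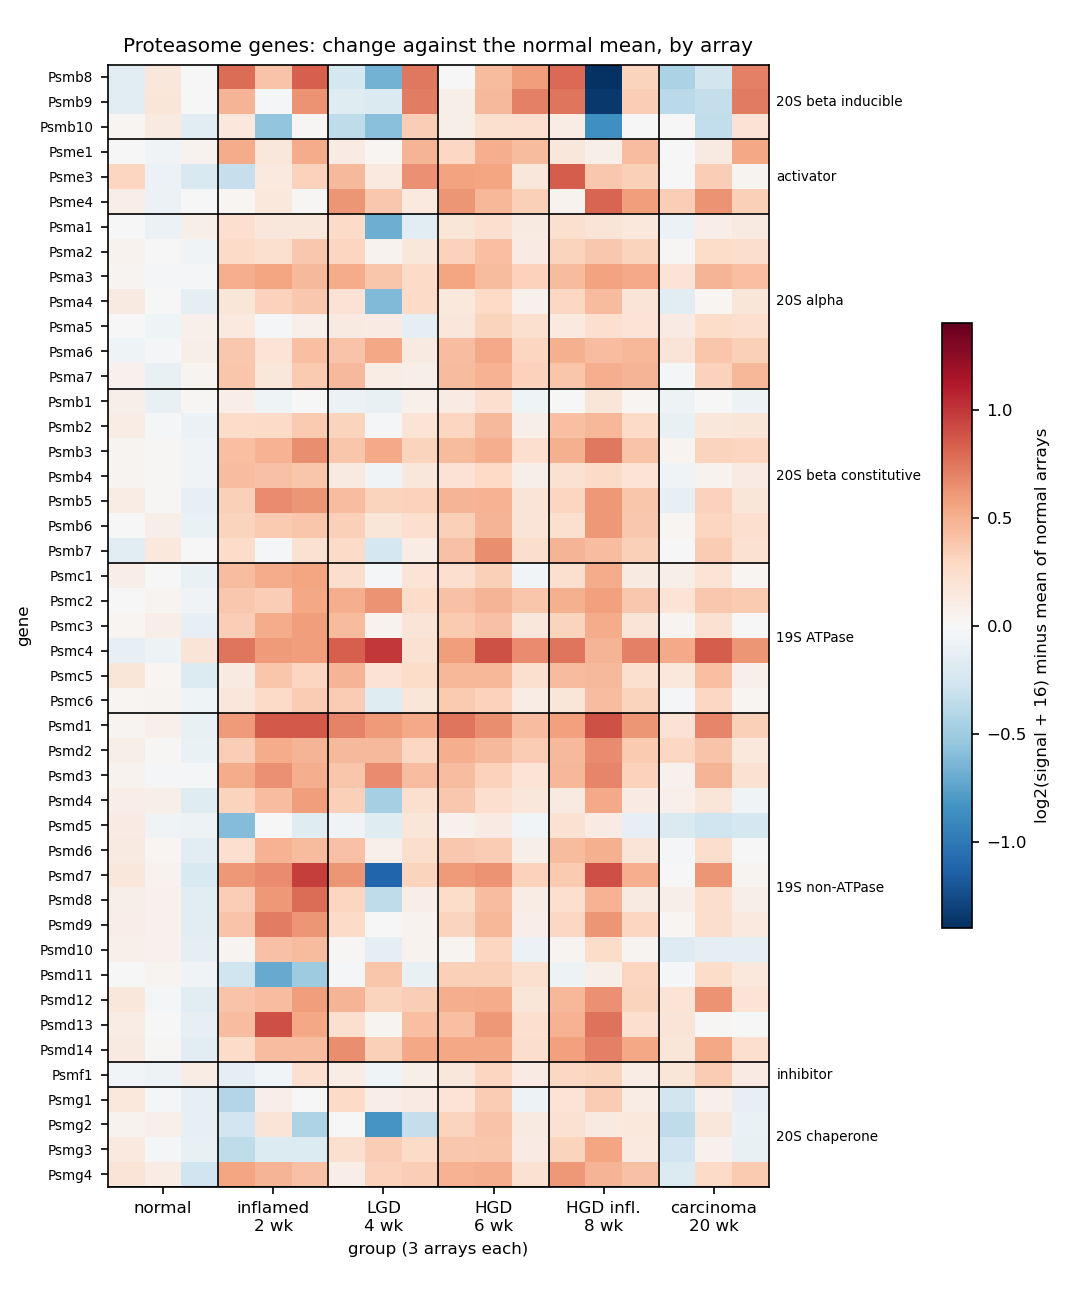
Change of 45 proteasome genes in each of the 18 arrays, as log2(signal + 16) minus the mean of the 3 normal arrays (colour, from blue below to red above); rows are genes by class and columns are arrays by group. Most rows outside the top block are red in the 15 diseased arrays, with medians per array of 0.02 to 0.49, while Psmb8 and Psmb9 are darkest blue in HGD at 8 weeks replicate 2.

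Counts of calls followed the number of genes called at each stage. In inflamed mucosa, 22 members were called higher and 1 lower, where 22.5% of all genes were called higher and 24.3% lower. In LGD, 8 were called higher and 0 lower (all genes 2.61% and 3.09%). In HGD at 6 weeks, 2 were called higher and 0 lower (0.622% and 0.521%). In HGD at 8 weeks, 16 were called higher and 0 lower (4.83% and 6.40%). In carcinoma none was called in either direction by limma (0.326% and 0.575%). At an unadjusted limma p under 0.05, 10 members were higher and 0 lower, beside 1008 higher and 1367 lower of all 12868 genes. Outside inflamed mucosa (16 to 27 calls), these counts moved by over 1.5 times when single arrays were left out.

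For LGD, leaving out any 1 of the normal arrays or LGD replicate 1 left 0 calls, LGD replicate 2 left 1 and inflamed replicate 3, which enters through the shared spread, left 5. For HGD at 6 weeks, 0 were left without any 1 of the normal arrays, HGD replicate 1 or 2, inflamed replicate 3 or carcinoma replicate 3. There was 1 left without inflamed replicate 1 or 2, LGD replicate 2 or 8-week HGD replicate 3, and 6 without LGD replicate 3 or 8-week HGD replicate 1. For HGD at 8 weeks, 6 were left without normal replicate 1 or 2, 8 without normal replicate 3 or its own replicate 2, 9 without its replicate 3 and 10 without 6-week HGD replicate 1. For carcinoma, 1 was called without its replicate 1, LGD replicate 1 or 8-week HGD replicate 1, and 2 without LGD replicate 3. The share of all genes called was not counted in these fits, so the moves are not read as particular to proteasome genes. Over all 6 groups, limma's moderated F test called 17 of the 47 members, against 45.3% of all genes.

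The alpha subunits, which form the outer rings of the core, were called higher for 3 of 7 genes in inflamed mucosa, 1 in LGD, 1 in HGD at 6 weeks, 4 in HGD at 8 weeks and 0 in carcinoma. The share of all genes called higher was 22.5%, 2.61%, 0.622%, 4.83% and 0.326% in the same order. Psma3 was the alpha gene called in 4 of these comparisons. Its normal arrays stood at 12.14, 12.08 and 12.09 and its inflamed arrays at 12.61, 12.66 and 12.56. LGD stood at 12.62, 12.49 and 12.37, HGD at 6 weeks at 12.66, 12.55 and 12.43, HGD at 8 weeks at 12.55, 12.67 and 12.63 and carcinoma at 12.30, 12.58 and 12.52. Each of the 15 diseased arrays lay above all 3 normal ones. The change was 0.51 ± 0.09 in inflamed mucosa (SE, limma adjusted p = 0.000268), 0.39 in LGD (0.0226), 0.44 in HGD at 6 weeks (0.0348) and 0.52 in HGD at 8 weeks (0.00552). In carcinoma it was 0.36 ± 0.09 and missed the threshold (adjusted p = 0.0587).

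The 6-week call of Psma3 was lost without any 1 of the normal arrays or HGD replicate 1 or 2 (adjusted p = 0.0808 to 0.158). Its other probe set, far dimmer, changed by 0.03 there, and the median of both gave 0.24 (0.333). Psma2 and Psma6 were called in inflamed mucosa (0.29 and 0.33) and in HGD at 8 weeks (0.33 and 0.47), and Psma7 in HGD at 8 weeks alone among the 5 (0.45, adjusted p = 0.0364; 0.30 and 0.0631 in inflamed mucosa). Psma1, Psma4 and Psma5 were called in none. Psma1 and Psma4 each had their lowest value in LGD replicate 2, at 10.25 and 11.10.

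Among the 7 constitutive beta subunits, 4 were called higher in inflamed mucosa, 1 in LGD, 0 in HGD at 6 weeks, 4 in HGD at 8 weeks and 0 in carcinoma. The matching shares of all genes were 22.5%, 2.61%, 0.622%, 4.83% and 0.326%. Psmb5 holds the chymotrypsin-like site. Its normal arrays stood at 10.86, 10.78 and 10.64, inflamed at 11.09, 11.42 and 11.38, and LGD at 11.19, 11.07 and 11.08. HGD at 6 weeks stood at 11.24, 11.25 and 10.94, HGD at 8 weeks at 11.06, 11.37 and 11.15 and carcinoma at 10.65, 11.08 and 10.93. All stages but carcinoma lay wholly above normal. Psmb5 rose by 0.54 ± 0.13 in inflamed mucosa (adjusted p = 0.00377) and by 0.43 ± 0.13 in HGD at 8 weeks (0.0479). The second call was lost without normal replicate 1, 2 or 3 or HGD replicate 2 or 3 (adjusted p = 0.0750 to 0.144), without the filter on low signals (0.0601) and with only the arrays of the 2 groups (0.0859). In LGD, HGD at 6 weeks and carcinoma its change was 0.36, 0.39 and 0.13, below the threshold (adjusted p = 0.117, 0.133 and 0.642).

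Psmb6 holds the caspase-like site. Its normal arrays stood at 10.78, 10.86 and 10.68, inflamed at 11.08, 11.14 and 11.16 and LGD at 11.11, 10.94 and 11.01. HGD at 6 weeks stood at 11.11, 11.25 and 10.95, HGD at 8 weeks at 11.00, 11.38 and 11.15 and carcinoma at 10.80, 11.07 and 11.01. Of the diseased arrays, 1 overlapped the normal range, carcinoma replicate 1. Psmb6 rose by 0.35 ± 0.11 in inflamed mucosa (adjusted p = 0.0159) and by 0.40 ± 0.11 in HGD at 8 weeks (0.0346). The inflamed call was lost without normal replicate 3 or inflamed replicate 3 (0.0615 and 0.0508). The 8-week call was lost without any 1 of the normal arrays or HGD replicate 2 or 3 (0.0686 to 0.113) and with only the arrays of the 2 groups (0.110).

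Psmb7 holds the trypsin-like site and was called in no comparison. Its normal arrays stood at 9.79, 10.08 and 9.93, inflamed at 10.19, 9.92 and 10.15 and LGD at 10.20, 9.69 and 10.04. HGD at 6 weeks stood at 10.34, 10.58 and 10.18, HGD at 8 weeks at 10.41, 10.36 and 10.27 and carcinoma at 9.93, 10.29 and 10.15. Both HGD groups lay above normal and the other 3 overlapped it. Its change was 0.44 ± 0.15 at 6 weeks and 0.41 ± 0.15 at 8 weeks (adjusted p = 0.129 and 0.0740). Of the beta subunits without a cutting site, Psmb3 rose in inflamed mucosa (0.52 ± 0.11, adjusted p = 0.00133), in LGD (0.41, 0.0447) and in HGD at 8 weeks (0.54, 0.0110). Psmb4 rose in inflamed mucosa (0.41 ± 0.08, 0.000495), Psmb2 rose in HGD at 8 weeks (0.39, 0.0498), and Psmb1 changed by -0.04 to 0.09 over the 5 comparisons.

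None of the inducible genes Psmb8, Psmb9 and Psmb10 was called in any of the 8 comparisons, and their arrays were spread widely within groups. With Psme1 added, the median change of the 4 genes was 0.38 in inflamed mucosa and 0.37 in HGD at 6 weeks, beside 0.35 and 0.31 for the 41 others. In LGD, HGD at 8 weeks and carcinoma it was 0.03, -0.09 and 0.01, beside 0.22, 0.39 and 0.14. Psmb8 stood at 10.37, 10.69 and 10.53 in normal mucosa, 11.31, 10.93 and 11.37 in inflamed mucosa and 10.28, 9.87 and 11.27 in LGD. It stood at 10.54, 10.97 and 11.11 in HGD at 6 weeks, 11.32, 9.15 and 10.84 in HGD at 8 weeks and 10.09, 10.27 and 11.24 in carcinoma. The inflamed arrays lay above all normal ones, and every later group overlapped normal. The change in inflamed mucosa was 0.67 ± 0.47 (adjusted p = 0.263), and 0.00 ± 0.47 in carcinoma (0.998). With the fit limited to the 6 arrays of the inflamed and normal groups, whose own spread is smaller, the inflamed change was called (adjusted p = 0.00893).

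Psmb9 stood at 9.57, 9.90 and 9.72 in normal mucosa, 10.21, 9.71 and 10.36 in inflamed mucosa and 9.56, 9.53 and 10.45 in LGD. It stood at 9.81, 10.18 and 10.43 in HGD at 6 weeks, 10.48, 8.38 and 10.07 in HGD at 8 weeks and 9.35, 9.40 and 10.46 in carcinoma. All 5 groups overlapped normal. The highest and the lowest value of Psmb9 both came from the same group, HGD at 8 weeks. Its change was 0.36 ± 0.45 in inflamed mucosa and 0.41 ± 0.45 in HGD at 6 weeks (adjusted p = 0.538 and 0.672).

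Psmb10 stood at 10.64, 10.74 and 10.46 in normal mucosa, 10.76, 10.06 and 10.63 in inflamed mucosa and 10.26, 10.03 and 10.96 in LGD. It stood at 10.70, 10.84 and 10.85 in HGD at 6 weeks, 10.72, 9.75 and 10.61 in HGD at 8 weeks and 10.62, 10.27 and 10.82 in carcinoma. Every group overlapped normal. Its change was -0.13 ± 0.27 in inflamed mucosa (adjusted p = 0.731) and -0.25 ± 0.27 in HGD at 8 weeks (0.573). HGD at 8 weeks replicate 2 was the lowest of the 18 arrays for Psmb8, Psmb9 and Psmb10 alike. Without it, the 8-week changes of Psmb8, Psmb9 and Psmb10 moved from -0.09, -0.08 and -0.25 to 0.55, 0.55 and 0.05, all still uncalled (adjusted p = 0.37, 0.328 and 0.91).

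Psme1, a subunit of the activator that caps the immunoproteasome, was called in 1 comparison. It stood at 11.24, 11.20 and 11.30 in normal mucosa, 11.77, 11.41 and 11.77 in inflamed mucosa and 11.36, 11.27 and 11.72 in LGD. It stood at 11.54, 11.75 and 11.69 in HGD at 6 weeks, 11.41, 11.33 and 11.68 in HGD at 8 weeks and 11.25, 11.37 and 11.79 in carcinoma. Inflamed mucosa and both HGD groups lay above normal. Psme1 rose by 0.41 ± 0.16 in inflamed mucosa (adjusted p = 0.0436), which held without inflamed replicate 2 (0.0198) and was lost without any other single array of the 2 groups (0.0681 to 0.139) or without the filter on low signals (0.0544). In HGD at 6 weeks its change was 0.42 ± 0.16 (0.161, and 0.0185 with only the arrays of the 2 groups).

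**Figure D2:**
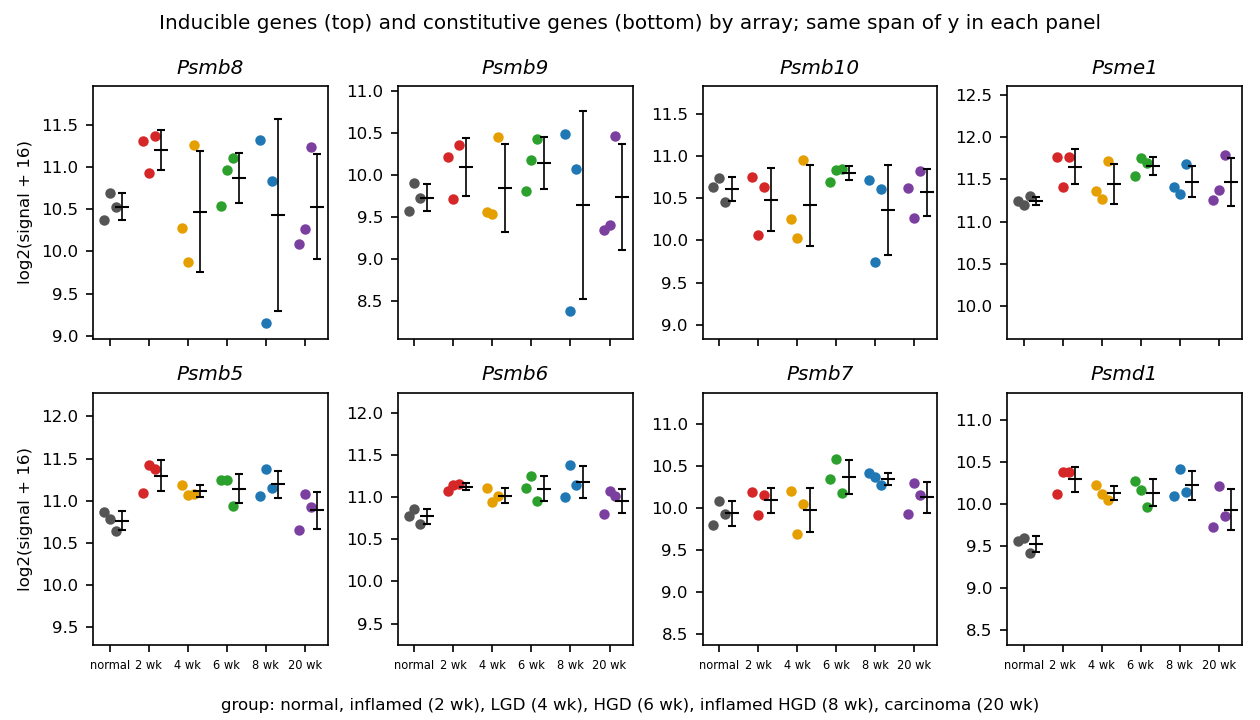
Log2(signal + 16) of the 4 inducible genes (top) and of Psmb5, Psmb6, Psmb7 and Psmd1 (bottom) in each array, with the mean and SD of each group of 3 in black. Every y axis spans the same range; Psmb8 and Psmb9 scatter widely within the later groups, down to 9.15 and 8.38 in HGD at 8 weeks, while the constitutive genes stay close together.

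Set against the other members array by array, the inducible genes had no common direction. The mean change of Psmb8, Psmb9, Psmb10 and Psme1, minus the median change of the 41 others, was 0.18, -0.39 and 0.09 in the inflamed arrays and -0.50, -0.44 and 0.38 in LGD. It was -0.26, -0.04 and 0.33 in HGD at 6 weeks, 0.14, -1.37 and -0.03 in HGD at 8 weeks and -0.22, -0.47 and 0.41 in carcinoma. Both signs occurred in every group. The group means were -0.04 ± 0.31, -0.19 ± 0.49, 0.01 ± 0.30, -0.42 ± 0.83 and -0.10 ± 0.45 (SD, n = 3), so none exceeded its own spread, and the 8-week mean became 0.06 without its replicate 2. No p is given for this difference, since the members were chosen with results known.

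The exchange of a constitutive subunit for its inducible counterpart was followed as the change of one minus the change of the other. For Psmb8 against Psmb5 the difference averaged 0.13 ± 0.36 (SD, n = 3) in inflamed mucosa, -0.41 ± 0.73 in LGD, -0.05 ± 0.43 in HGD at 6 weeks, -0.53 ± 1.30 in HGD at 8 weeks and -0.12 ± 0.59 in carcinoma. For Psmb9 against Psmb6 it averaged 0.01 ± 0.35, -0.13 ± 0.53, 0.08 ± 0.40, -0.49 ± 1.30 and -0.18 ± 0.59 in the same order. Neither pair moved beyond its spread at any stage. For Psmb10 against Psmb7 it averaged -0.28 ± 0.23, -0.24 ± 0.44, -0.25 ± 0.21, -0.66 ± 0.54 and -0.23 ± 0.40. This pair was at or below 0 in 13 of the 15 diseased arrays, the others being LGD replicate 3 (0.25) and carcinoma replicate 1 (0.01), and in the normal arrays it was 0.17, -0.02 and -0.15.

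**Figure D3:**
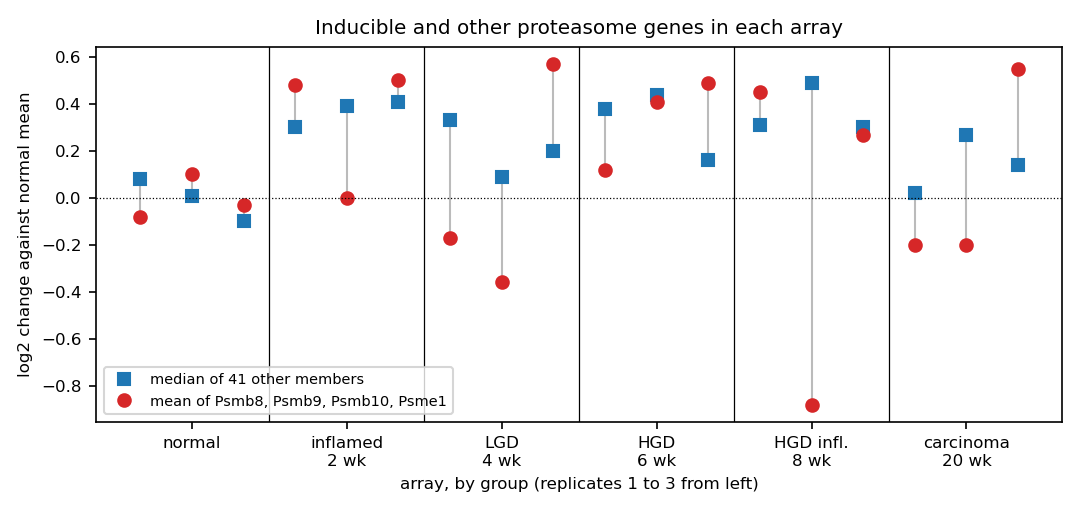
Change against the normal mean (log2) in each array of the mean of Psmb8, Psmb9, Psmb10 and Psme1 (red circles) and of the median of the 41 other members (blue squares), joined by a grey line. The blue squares lie above 0 in all 15 diseased arrays, from 0.02 to 0.49, and at 0.08, 0.01 and -0.10 in the normal arrays. The red circles run from -0.88 to 0.57.

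Psmb8 and Psmb9 had the widest spread within groups of all proteasome subunit genes tested. The pooled SD within groups was 0.629 for Psmb8, 0.598 for Psmb9 and 0.357 for Psmb10, and 94.5%, 93.8% and 81.8% of all genes tested had a smaller one. The median over the 41 other members was 0.156, and over all genes 0.195. Psme1 was at 0.195, below Psme3 (0.265), Psmg2 (0.248), Psma4 (0.233), Psmd4 (0.228) and Psmc4 (0.215). At the other end, Psmb4, Psma5, Psmb1 and Psma3 had pooled SDs of 0.0767, 0.0877, 0.0950 and 0.0979, with 1.27% to 5.21% of all genes below them. Psmd7 had 0.437, above Psmb10, with LGD replicate 2 at 7.32 against 9.05 and 8.74 in the other LGD arrays.

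The inducible genes deviated together. Over the 18 arrays, each taken as its deviation from its group mean, Psmb8 and Psmb9 had a Pearson r of 0.98 and a Spearman rho of 0.97 (p = 2.14e-05 for both, the smallest the exact permutation within groups can give; adjusted 0.000171 over 8 relations). Without the 2 arrays farthest from the median of Psmb8, r was 0.96. Psmb8 and Tap1 had r = 0.91 and rho = 0.89 (exact adjusted p = 0.00386 and 0.00304, and r = 0.84 without 2 arrays). Psmb8 and Psmb10 had r = 0.88 and rho = 0.87 (exact adjusted p = 0.00377 and 0.00303; r = 0.82). Psmb8 and Psme1 had r = 0.72 and rho = 0.81 (exact adjusted p = 0.0122 and 0.00408; r = 0.93).

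With its constitutive counterpart Psmb5, Psmb8 had r = -0.35 and rho = -0.35 (exact permutation within groups, adjusted p = 0.273 and 0.274; r = -0.09 without 2 arrays). Psmb5 and Psmb6, both constitutive, had r = 0.86 and rho = 0.85 (exact adjusted p = 0.000943 and 0.00189; r = 0.87). The leukocyte marker Ptprc moved with Psmb8 too, with r = 0.84 and rho = 0.75 (exact adjusted p = 0.0201 and 0.0168), falling to r = 0.63 without the 2 farthest arrays. For the epithelial marker Epcam the values were r = 0.04 and rho = -0.01 (exact adjusted p = 0.823 and 0.923; r = 0.19). These 8 relations were chosen after values had been seen. Their p-values were adjusted over the 8 alone and do not cover that choice, so they only describe these arrays. Arrays share their hybridisation and tissue piece, so genes of 1 array are not independent.

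**Figure D4:**
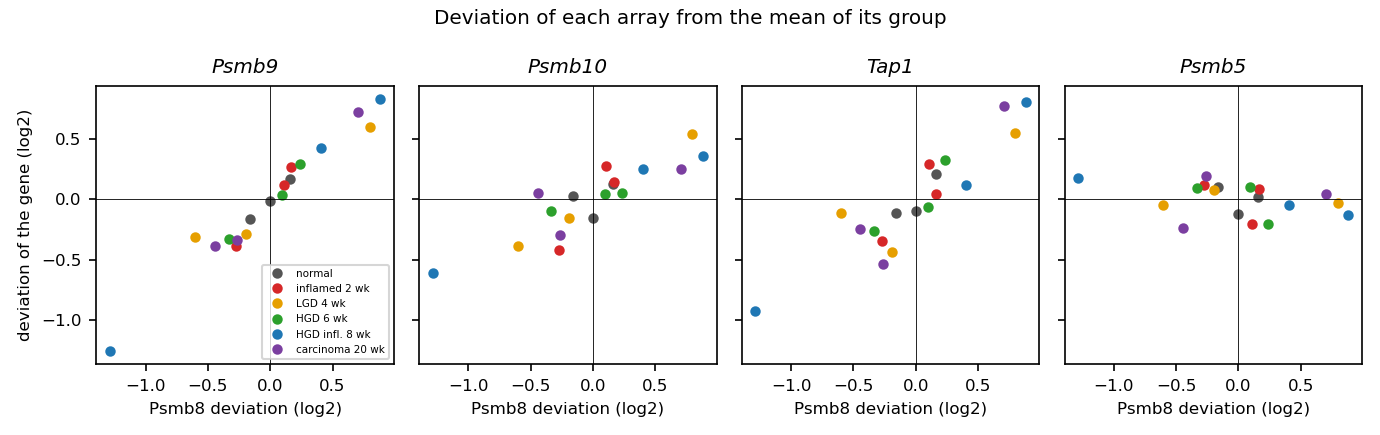
Deviation of Psmb9, Psmb10, Tap1 and Psmb5 from the mean of their group (y, log2) against that of Psmb8 (x, log2), for each of the 18 arrays, coloured by group. The first 3 rise with Psmb8 (r = 0.98, 0.88 and 0.91), and Psmb5 does not (r = -0.35).

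In the array where Psmb8, Psmb9 and Psmb10 were lowest, several leukocyte lists were low and others were not. In HGD at 8 weeks replicate 2 the mean change of the list against normal was -0.80 for 10 pan-leukocyte genes, -0.75 for 8 T and NK cell genes, -1.45 for 6 B and plasma cell genes and -0.75 for 18 interferon-gamma genes, while it was 0.90 for 9 neutrophil genes and -0.11 for 9 macrophage genes. Replicate 1 of the same group stood at 1.55, 0.84, 1.44, 0.91, 3.19 and 0.45 on those lists and replicate 3 at 0.51, 0.50, 0.26, 0.50, 2.18 and 0.25. The order of these 3 arrays was that of Psmb8 (11.32, 9.15 and 10.84 for replicates 1, 2 and 3). In carcinoma, replicate 1 was lowest and replicate 3 highest for the pan-leukocyte list (-0.52, 0.35 and 0.76) and for Psmb8. In the other diseased groups the orders differed: the pan-leukocyte list was at 1.28, 1.53 and 1.76 in inflamed mucosa, 1.16, -0.01 and 0.66 in LGD and 0.18, 0.41 and 0.33 in HGD at 6 weeks, where Psmb8 stood at 11.31, 10.93 and 11.37, at 10.28, 9.87 and 11.27 and at 10.54, 10.97 and 11.11. The part of leukocyte content in the inducible genes was not tested.

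The 6 ATPases of the 19S cap were called higher for 4 genes in inflamed mucosa, 2 in LGD, 0 in HGD at 6 weeks, 2 in HGD at 8 weeks and 0 in carcinoma. The matching shares of all genes were 22.5%, 2.61%, 0.622%, 4.83% and 0.326%. On the probe sets used, all 6 had a positive change in each of these comparisons. The other Psmc6 probe sets that passed the filter changed by -0.25 and -0.22 in inflamed mucosa and -0.19 and 0.02 in LGD. At later stages both were positive. Psmc4 stood at 9.46, 9.51 and 9.76 in normal mucosa, 10.33, 10.17 and 10.16 in inflamed mucosa and 10.41, 10.57 and 9.79 in LGD. It stood at 10.16, 10.47 and 10.24 in HGD at 6 weeks, 10.33, 10.05 and 10.28 in HGD at 8 weeks and 10.11, 10.42 and 10.20 in carcinoma. No diseased array overlapped the normal ones, and LGD replicate 3 came nearest. Psmc4 rose by 0.64 ± 0.17 in inflamed mucosa (adjusted p = 0.00667), by 0.68 in LGD (0.0377) and by 0.64 in HGD at 8 weeks (0.0327). In HGD at 6 weeks and carcinoma its change was as large, 0.71 and 0.66, but missed the threshold (0.0587 and 0.0749).

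The LGD call of Psmc4 was lost without any 1 of the normal arrays or LGD replicate 1 or 2 (adjusted p = 0.0615 to 0.141), on its plain probe set (0.47, 0.0528), with only the arrays of the 2 groups (0.150) and with each array centred on its median (0.0526). The 8-week call was lost without normal replicate 1 or 2 or HGD replicate 1 or 3 (0.0542 to 0.106). Psmc2 rose in inflamed mucosa (0.42 ± 0.10, adjusted p = 0.00326), LGD (0.46, 0.0204) and HGD at 8 weeks (0.48, 0.0122). Psmc1 (0.50 ± 0.12, 0.00391) and Psmc3 (0.48 ± 0.12, 0.00508) were called in inflamed mucosa and in no later comparison with normal. Psmc5 and Psmc6 were called in none, with changes of 0.21 to 0.39 and 0.10 to 0.31.

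Of the 14 non-ATPase subunits and base assembly factors of the cap, 9 were called higher and 1 lower in inflamed mucosa, 4 higher in LGD, 1 in HGD at 6 weeks, 5 in HGD at 8 weeks and 0 in carcinoma. The shares of all genes called higher were 22.5%, 2.61%, 0.622%, 4.83% and 0.326%, with 24.3% called lower in inflamed mucosa. Psmd1, a large scaffold of the cap, was called in 4 of the 5. It stood at 9.56, 9.59 and 9.42 in normal mucosa, 10.12, 10.38 and 10.38 in inflamed mucosa and 10.22, 10.12 and 10.05 in LGD. It stood at 10.27, 10.17 and 9.96 in HGD at 6 weeks, 10.10, 10.42 and 10.14 in HGD at 8 weeks and 9.73, 10.21 and 9.86 in carcinoma. All 15 diseased arrays lay above the 3 normal ones. Psmd1 rose by 0.77 ± 0.14 in inflamed mucosa (adjusted p = 0.000339, a fold of 1.70), by 0.60 in LGD (0.0231), by 0.61 in HGD at 6 weeks (0.0478) and by 0.70 in HGD at 8 weeks (0.00952). Its change in carcinoma was 0.41 ± 0.14 (0.140).

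Its inflamed and 8-week calls held without each of the 6 arrays compared. The LGD call of Psmd1 was lost without any 1 of the normal arrays or LGD replicate 1 or 2 (adjusted p = 0.0566 to 0.0954) and with only the arrays of the 2 groups (0.0797). The 6-week call was lost without any 1 of the normal arrays or HGD replicate 1 or 2 (0.104 to 0.213), and without the filter on low signals (0.0562).

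Psmd14, the deubiquitinating subunit that strips ubiquitin from the substrate, stood at 11.43, 11.32 and 11.16 in normal mucosa, 11.56, 11.73 and 11.74 in inflamed mucosa and 11.95, 11.64 and 11.85 in LGD. It stood at 11.84, 11.85 and 11.55 in HGD at 6 weeks, 11.88, 12.01 and 11.84 in HGD at 8 weeks and 11.47, 11.85 and 11.54 in carcinoma. All diseased arrays lay above normal, with carcinoma replicate 1 nearest to it. Psmd14 rose by 0.37 ± 0.12 in inflamed mucosa (adjusted p = 0.0223), by 0.51 in LGD (0.0311) and by 0.60 in HGD at 8 weeks (0.0110). The LGD call was lost without any 1 of the normal arrays or LGD replicate 1 (0.0502 to 0.126) and with only the arrays of the 2 groups (0.105).

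Psmd13, a subunit of the lid of the cap, rose in inflamed mucosa. It stood at 8.41, 8.31 and 8.19 in normal mucosa and 8.74, 9.21 and 8.84 in inflamed mucosa. The 2 groups did not overlap, which the rule for giving genes in full required, and the change was 0.63 ± 0.16 (adjusted p = 0.00410). Its probe sets differ: the others that passed the filter changed by 0.37 and -0.13. The latter averaged 6.07, below the table median of 6.18 on this scale. The median over all its probe sets, dim ones included, gave 0.12 (0.147). Psmd2, the second large scaffold, and Psmd3, of the lid, rose in inflamed mucosa (0.45 and 0.55), LGD (0.40 and 0.49) and HGD at 8 weeks (0.49 and 0.49), with adjusted p from 0.00197 to 0.0389. Psmd6, Psmd8 and Psmd9 rose in inflamed mucosa (0.39, 0.58 and 0.57), and Psmd12 there and in HGD at 8 weeks (0.47 and 0.47). Psmd4, Psmd5, Psmd7 and Psmd10 were called in none, and Psmd5, a base assembly factor, changed by -0.26 in inflamed mucosa and -0.25 in carcinoma (0.158 and 0.379).

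Psmd11, a lid subunit, was the 1 member called lower in a comparison with normal. It stood at 10.89, 10.93 and 10.84 in normal mucosa and 10.61, 10.18 and 10.39 in inflamed mucosa, a change of -0.49 ± 0.14 (adjusted p = 0.00959). The call was lost without inflamed replicate 2 (0.0528). Its probe sets disagree on direction. The probe set nearest to it in brightness changed by 0.30 and a further one by 0.51, the other 2 that passed by 0.07 and -0.05, and the median over the probe sets of the gene was 0.29, called higher (0.00818). In LGD the 2 brightest probe sets changed by 0.09 and 0.47, and in HGD at 8 weeks by 0.11 and 0.34.

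Among the other activators, Psme3, a nuclear cap, changed by 0.05, 0.41, 0.42, 0.52 and 0.13 in the 5 comparisons in stage order, and Psme4, a cap linked to histone breakdown, by 0.07, 0.38, 0.47, 0.48 and 0.43. Neither was called (lowest adjusted p = 0.109 and 0.0773). The inhibitor gene Psmf1 changed by 0.02 to 0.23 and was not called. Its direction depends on the probe set: the nearest in brightness changed by -0.35 to 0.01, and the dimmer ones that passed by -0.63 to -0.02. Of the 4 chaperones that assemble the core, Psmg4 rose by 0.48 ± 0.15 in inflamed mucosa (adjusted p = 0.0187) and by 0.50 in HGD at 8 weeks (0.0497). The other 3 had negative changes in inflamed mucosa, Psmg1 -0.11, Psmg2 -0.18 and Psmg3 -0.24, with no call. Of the 2 matches that are not subunits, Psmc3ip had a pooled SD of 0.600 and changed by 1.01 ± 0.45 in HGD at 8 weeks (0.146), and Psme3ip1 changed by -0.15 to -0.02.

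Between successive stages, LGD was compared with the inflamed mucosa that precedes it. Of the 47 members, 2 were called higher and 4 lower, where 19.3% of all genes were called higher and 17.0% lower. Psmg3 stood at 8.91, 9.08 and 9.07 in inflamed mucosa and 9.49, 9.61 and 9.54 in LGD, 0.53 ± 0.12 higher (adjusted p = 0.00452). Its call was lost over the median with its other probe set, which averaged 5.57 and did not pass the filter (0.19, 0.11). The same probe set of Psmd11 stood at 10.87, 11.27 and 10.78 in LGD, 0.58 ± 0.14 higher than in inflamed mucosa (0.00515), against -0.16 over the median of its probe sets. Neither gene's groups overlapped, which the rule for giving genes in full required. Of all genes, 24.0% lay wholly higher in LGD and 21.9% wholly lower.

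Lower in LGD than in inflamed mucosa were Psmd8 (10.75, 11.01 and 11.19 in inflamed, 10.70, 10.05 and 10.50 in LGD), Psmd9 (8.01, 8.32 and 8.22 in inflamed, 7.87, 7.60 and 7.66 in LGD) and Psmc1 (9.63, 9.72 and 9.76 in inflamed, 9.45, 9.18 and 9.40 in LGD). In each the inflamed arrays lay above the LGD ones, which the same rule required. The changes were -0.57 ± 0.16 for Psmd8, -0.47 ± 0.13 for Psmd9 and -0.36 ± 0.12 for Psmc1 (adjusted p = 0.0138, 0.0120 and 0.0322). Psmd9 turned to 0.12 (0.380) over the median of its probe sets, which takes in dim ones. Its others averaged 6.16 and 5.34, below the table median of 6.18 on this scale, against 7.86 for the one used. The other call, Psmb4, named after its values were seen, was -0.33 ± 0.08 (0.00380). With only the 6 arrays of these groups, Psmd11, Psmd8 and Psmc1 missed the threshold (0.0633, 0.0912 and 0.0778). Without LGD replicate 2, the array with the uneven Gapdh signal, 3 calls were left in place of 6, and without LGD replicate 1 there were 10. The share of all genes called was not counted there. Psmd8, Psmd9 and Psmc1 lost their calls without LGD replicate 2 (-0.38, -0.41 and -0.28, adjusted p = 0.0751, 0.0527 and 0.136). Psmd8 and Psmc1 also lost theirs without inflamed replicate 3 (0.0682 and 0.0974), and Psmd9 and Psmc1 lost theirs without inflamed replicate 2 (0.0551 and 0.0784).

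HGD at 8 weeks was compared with HGD at 6 weeks. Between them lie the third DSS cycle, active inflammation and 2 weeks of age (day 56 against day 42), which cannot be told apart. No gene of the array was called in either direction by limma (percent called 0), and at an unadjusted p under 0.05 no member was higher or lower, against 167 genes higher and 256 lower in all. The median change of the 41 members outside the inducible group was 0.05. Carcinoma was then compared with HGD at 8 weeks. Again no gene was called by limma (percent called 0), and at an unadjusted p under 0.05 no member was higher and 12 were lower, of 611 and 811 genes. The median change of the 41 was -0.22, with 38 of them negative, beside a median of -0.04 over all genes. Psmg3 had the smallest p of the members (-0.43 ± 0.12, adjusted p = 0.300). Both comparisons rest on the 8-week arrays, and the second reads the same values as the comparisons with normal in another way.

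Genes that work with the proteasome were a list of 21 ubiquitin receptors, shuttles and regulators, chosen with earlier results of these data known. In inflamed mucosa, 7 were called higher and 2 lower (all genes 22.5% and 24.3%). LGD had 3 and 1 (2.61% and 3.09%), and HGD at 6 weeks 0 and 0 (0.622% and 0.521%). HGD at 8 weeks had 5 and 0 (4.83% and 6.40%), and carcinoma 0 and 0 (0.326% and 0.575%). The median changes were 0.23, 0.15, 0.14, 0.17 and 0.13. Pomp, which matures the new core, stood at 10.86, 10.87 and 10.74 in normal mucosa and 11.37, 11.35 and 11.47 in inflamed mucosa. It rose by 0.57 ± 0.09 there (adjusted p = 0.000197) and by 0.39 in HGD at 8 weeks (0.0223). Vcp, the segregase that extracts ubiquitinated proteins, rose by 0.69 ± 0.11 in inflamed mucosa (0.000205), 0.42 in LGD (0.0452) and 0.60 in HGD at 8 weeks (0.00889).

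The arsenite-inducible proteasome regulator Zfand2a rose by 1.11 ± 0.16 in inflamed mucosa (adjusted p = 7.23e-05) and its relative Zfand5 by 1.04 ± 0.25 (0.00351). In HGD at 8 weeks Zfand2a changed by 0.20 and Zfand5 by 0.39, neither called (0.433 and 0.315). Nfe2l1, the driver of constitutive subunit genes named above, rose by 0.51 ± 0.11 in inflamed mucosa (0.00172) and changed by 0.01 in HGD at 8 weeks (0.952). Ngly1, an enzyme that Nfe2l1 protein needs for its activation, fell by 0.57 ± 0.18 in inflamed mucosa (0.0163). In LGD, Nfe2l2 fell by 0.47 ± 0.11 (0.0274), and Rad23b and Usp14 rose by 0.59 and 0.46 (0.0394 and 0.0411). In HGD at 8 weeks, Rad23b, a shuttle for ubiquitinated proteins, rose by 0.56 ± 0.15 (0.0335) and Usp14, a deubiquitinase on the cap, by 0.44 ± 0.12 (0.0346).

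Downstream of the immunoproteasome, 2 of 12 MHC class I presentation genes were called higher in inflamed mucosa, where 22.5% of all genes were, and none at any later stage. H2-K1 rose by 0.87 ± 0.25 (adjusted p = 0.0113) and H2-D1 by 0.71 ± 0.20 (0.00915). Of 18 interferon-gamma signalling and response genes, 5 were called higher in inflamed mucosa (22.5% of all genes) and none later. Neither count is read as a result about its list. Iigp1, an interferon-induced GTPase, rose by 2.61 ± 0.77 (0.0114) and Cxcl10, a T cell attractant, by 1.84 ± 0.69 (0.0402). Gbp6, a guanylate-binding protein, rose by 1.41 (0.0254) and Cd274, the checkpoint ligand PD-L1, by 1.10 (0.0168). By array, the mean change of the interferon-gamma list was 0.81, 0.11 and 0.80 in inflamed mucosa, where Psmb8 stood at 11.31, 10.93 and 11.37. It was 0.03, -0.10 and 0.70 in LGD and -0.19, -0.19 and 0.76 in carcinoma, and in both groups replicate 3 was also highest for Psmb8, Psmb9, Psmb10 and Psme1.

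The inflamed comparison came with a large shift in the cells sampled. Of 14 epithelial markers, 13 were called lower in inflamed mucosa, with a median change of -3.06 and means by array of -1.34, -4.89 and -2.53, against -0.10 to 0.08 in normal mucosa. Of 10 pan-leukocyte markers 9 were called higher (median 1.57; 1.28 to 1.76 by array, against -0.23 to 0.26 in normal mucosa), with all 9 neutrophil markers (median 4.34) and 8 of 9 macrophage markers (median 1.99). All 9 fibroblast and endothelial markers were called higher (median 1.34). Of 9 proliferation genes 5 were called lower (median -0.82). Over all genes, 22.5% were called higher and 24.3% lower in inflamed mucosa. The 18S control was at 8.98 and 8.93 in inflamed replicates 1 and 2, against 10.08 to 11.18 in the other 16 arrays. The part of these shifts in the proteasome genes was not tested.

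At the later stages epithelial and pan-leukocyte markers lay closer to normal than in inflamed mucosa. The median of smooth muscle markers lay farther from normal in both HGD groups and near its inflamed value in LGD and carcinoma. Epithelial markers were called in neither direction in LGD, HGD at 6 weeks and carcinoma, and 1 of 14 was called higher in HGD at 8 weeks. Pan-leukocyte markers were not called in any of these 4 comparisons, with medians of 0.56, 0.31, 0.40 and 0.14. Of the proliferation genes, 3 of 9 were called higher in LGD (median 0.45) and none in the others (0.43, 0.37 and -0.03). Neutrophil markers were called higher for 2 of 9 in LGD and 2 in HGD at 8 weeks, and macrophage markers for 1 of 9 in LGD and for 2, with 1 lower, in HGD at 8 weeks. Smooth muscle markers were called lower for 3 of 8 in HGD at 8 weeks and in no other comparison with normal, with medians of -0.65, -0.52, -1.04, -1.29 and -0.62 in stage order. Over all genes, 2.61% were called higher in LGD, and 4.83% higher and 6.40% lower in HGD at 8 weeks. In HGD at 6 weeks, 31 of the 41 members outside the inducible group had all 3 arrays above all 3 normal ones, where 17.6% of all genes did. In HGD at 8 weeks it was 34 of 41 (15.5%), in LGD 16 (16.3%), in inflamed mucosa 28 (29.3%) and in carcinoma 13 (14.4%).

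A further 31 probe sets of 22 members passed the filter beside the ones used. Their change had the sign of the one used in 18 of 31 in inflamed mucosa, 22 in LGD, 26 in HGD at 6 weeks and 23 in each of HGD at 8 weeks and carcinoma. The second probe set of Psmc4 changed by 0.80, 0.47, 0.47, 0.53 and 0.19 in stage order, above normal each time. The second probe set of Psmb8 did not pass the filter.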

How the data were processed

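The members, gene lists and tests were chosen with earlier results of these data known. The deposited values are intensity, a linear signal per probe set that the authors made, and the submitters' processing notes name MAS5. No version or settings for it are given in the sources used here. The table holds 45101 probe sets, 64 of them controls. Of the rest, 34945 have 1 gene in GEO's platform annotation, 932 several and 9160 none, and 34741 matched the RefSeq gene table by gene identifier. Signals run from 3.39 to 24945 (median 56.6), and the number of arrays limits the precision.

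Here 16 was added and log2 taken, which understates changes of dim genes. No further scaling was applied. A gene was kept where at least 3 of 18 arrays lay above the table median, which left 12868 genes. limma 3.58.1 in R 4.3.3 fitted 1 mean per group to all 18 arrays (12 residual degrees of freedom, intensity trend, prior degrees of freedom median 2.51). P-values are 2-sided and adjusted by Benjamini and Hochberg over all genes in each of 8 comparisons. The fit was tested on simulated data. The genes given in full are the inducible genes, Psmb5, Psmb6, Psmb7 and, per comparison, up to 3 members with the largest increase and 3 with the largest decrease among those called whose groups do not overlap. For members picked this way, the lack of overlap in that comparison follows from the rule and adds no support. From each list, up to 4 genes with the largest change among those called are named where the text gives the list. Psmd2, Psmc2 and other members given briefly lie outside this rule and were picked by class. Nfe2l1 and Pomp in inflamed mucosa were named for their role.

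Other settings tried were the pseudocount, the low-signal filter, the probe set per gene, quantile normalization, the intensity trend, the arrays in the fit, the replicate number as a block and leaving out each array. Centring each array on its median was added after the data were seen.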

Additional observations from a re-analysis of the deposited data

Results flagged for a closer look

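The change against normal mucosa differed between LGD and inflamed mucosa for 6 members, by limma's test of LGD minus inflamed mucosa, which is the difference of the 2 changes, both taken against the same normal arrays. The members lower in LGD were Psmc1 (-0.36, adjusted p = 0.0322, from 0.50 in inflamed mucosa to 0.14 in LGD), Psmd8 (-0.57, 0.0138, from 0.58 to 0.02), Psmd9 (-0.47, 0.0120, from 0.57 to 0.11) and Psmb4 (-0.33, 0.00380, from 0.41 to 0.08). The members higher in LGD were Psmg3 (0.53, 0.00452, from -0.24 to 0.28) and Psmd11 (0.58, 0.00515, from -0.49 to 0.09). Over the median of probe sets, Psmd11 and Psmd9 turned to -0.16 and 0.12, and Psmg3 lost its call (limma adjusted p = 0.110). That median also takes in dim probe sets that did not pass the filter. Without LGD replicate 2, Psmd8, Psmd9 and Psmc1 lost theirs (limma adjusted p = 0.0751, 0.0527 and 0.136). Psmb4 was not followed under other settings. Epithelial markers differed between the same groups (13 of 14 higher in LGD, median 3.03), and their part was not tested.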

How the results depend on the processing

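Over 560 values of named members under other settings, 533 kept their side of the threshold, 21 lost the call, 2 gained it and 4 reversed. Some of the 533 were uncalled values whose sign turned with a shift no larger than the SE. Over the median of all probe sets of a gene, dim ones included, Psmd11 turned to 0.29 in inflamed mucosa and to -0.16 in LGD against inflamed mucosa, and Psmd9 to 0.12 in the latter. With plain probe sets only, Psmd13 turned to -0.13 in inflamed mucosa, on a dim probe set that averaged 6.07. Counts of members called moved by over 1.5 times as follows. Without the low-signal filter HGD at 6 weeks had 1. Over the median of probe sets LGD had 5. With plain probe sets LGD had 3, HGD at 6 weeks 1 and HGD at 8 weeks 8, with 40 members tested in place of 47. With only the arrays of the 2 groups, and so fewer degrees of freedom, LGD had 0, HGD at 6 weeks 12, HGD at 8 weeks 8, carcinoma 1 and LGD against inflamed mucosa 3. Centred arrays gave carcinoma 1. With the replicate number as a block, HGD at 6 weeks had 0 and HGD at 8 weeks 10. Replicate numbers did not pair the arrays (deviations of same-numbered arrays had a median r of -0.00, from -0.46 to 0.33 over 45 pairs). Other causes were not tested. Leaving out 1 array gave 16 to 27 calls in inflamed mucosa, 0 to 9 in LGD, 0 to 6 in HGD at 6 weeks, 6 to 17 in HGD at 8 weeks, 0 to 2 in carcinoma, 3 to 10 in LGD against inflamed mucosa, and 12 to 23 by the F test. Under none of these other settings was the share of all genes called counted, so the counts are not read as particular to the members. The inducible minus other members ranged from -0.15 to 0.14, -0.47 to -0.03, -0.15 to 0.14, -0.70 to 0.06 and -0.35 to 0.09 in stage order. Of 312 values of named members with 1 array left out, 53 lost the call. Many of these values, and of the 560 above, were uncalled in the main fit and so could not lose a call.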
